A study of Mus musculus with 26 samples.

Results

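The expression of 10 genes of NF-kB and interleukin-1 (IL1) signalling was followed in the choroid plexus of the 4th ventricle of the mouse. The symbols Nfkbia, Nfkb1, Nfkb2, Rela, Relb, Nkiras1, Il1r1, Tnfrsf1a, Tnfrsf12a and Tnfaip3 were looked up in the gene tables, and all 10 were found among 55416 listed genes. The choroid plexus is the tissue that makes cerebrospinal fluid, and the study asked which of its transcripts cycle over the day and which of these cycles need the suprachiasmatic nuclei (SCN), the master clock of the brain. Adult male C57Bl6J mice underwent sham surgery (Ctrl, 12 mice) or surgical ablation of the SCN (SCNx, 12 mice). They were then kept in constant darkness and killed every 4 h from circadian time (CT) 0 to CT44, so that each time point held 1 mouse per group. The 2 further libraries came from adult male FoxJ1-ERT2-Cre+/-; Bmal1fl/fl mice given tamoxifen in the diet (KO), in which a Cre driven by the FoxJ1 promoter, active in ciliated cells, removes floxed Bmal1 (Arntl). The KO mice lived under a light/dark cycle and were killed at Zeitgeber time (ZT) 7 by day and ZT18 by night, 1 library each. Recombination was tested in liver, per the labels. The KO choroid plexus was cut by laser from frozen sections and its libraries were made with another kit, and no Cre-negative littermate was analysed here.

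NF-kB is a family of transcription factors held in the cytoplasm by inhibitor proteins. Ligands such as IL1, tumour necrosis factor (TNF) and TWEAK bind receptors at the cell surface, adaptors and kinases then have the inhibitor destroyed, and the freed factor enters the nucleus and switches on genes of inflammation. Among its targets are its own inhibitors, which close the loop. At the choroid plexus, a barrier between blood and brain, this pathway is known as a route by which inflammation in the body is sensed. The 10 genes fall into 3 receptors (Il1r1 for IL1, Tnfrsf1a for TNF and Tnfrsf12a for TWEAK), 3 inhibitors (Nfkbia, which encodes IkB alpha, the GTPase Nkiras1, which slows the loss of IkB, and Tnfaip3, which encodes the ubiquitin editing enzyme A20) and 4 subunits of the factor itself (Nfkb1, Nfkb2, Rela and Relb).

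Promoter sequences were shown because several of these genes are themselves NF-kB targets and 3 of them followed a 24 h curve in Ctrl. RefSeq start sites of GRCm38.p6 were at hand for 7 of the 10 genes, in 11 windows of 250 bases before the start. Nfkb1, Relb and Nkiras1 had none in that table. Windows are written 5′ to 3′ on the strand of the gene, and capitals mark a match, on either strand, to the kappaB consensus or to the E-box CACGTG, the element bound by the clock factor BMAL1.
Nfkbia, chr12:55492648-55492897, minus strand: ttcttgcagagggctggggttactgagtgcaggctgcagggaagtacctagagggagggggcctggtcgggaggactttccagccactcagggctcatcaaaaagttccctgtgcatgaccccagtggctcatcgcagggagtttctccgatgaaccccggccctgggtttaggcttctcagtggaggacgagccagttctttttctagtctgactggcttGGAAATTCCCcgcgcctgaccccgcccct
Nfkb2, first start, chr19:46304487-46304736, plus strand: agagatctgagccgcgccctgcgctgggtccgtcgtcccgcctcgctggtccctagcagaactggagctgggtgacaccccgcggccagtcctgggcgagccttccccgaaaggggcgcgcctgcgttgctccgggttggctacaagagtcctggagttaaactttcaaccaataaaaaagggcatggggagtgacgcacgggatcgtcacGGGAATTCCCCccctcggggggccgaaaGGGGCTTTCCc
Tnfaip3, upstream start, chr10:19015411-19015660, minus strand: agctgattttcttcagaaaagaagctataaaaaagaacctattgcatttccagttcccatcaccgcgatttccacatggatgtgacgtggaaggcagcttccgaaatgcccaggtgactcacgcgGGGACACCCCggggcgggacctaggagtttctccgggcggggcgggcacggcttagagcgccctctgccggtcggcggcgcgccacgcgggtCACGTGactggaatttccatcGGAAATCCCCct
Il1r1, upstream start, chr1:40224830-40225079, plus strand: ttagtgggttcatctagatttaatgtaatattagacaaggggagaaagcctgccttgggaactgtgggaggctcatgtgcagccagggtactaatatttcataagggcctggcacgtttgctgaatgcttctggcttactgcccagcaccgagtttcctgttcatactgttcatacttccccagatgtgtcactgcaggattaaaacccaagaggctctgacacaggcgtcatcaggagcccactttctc
Il1r1, downstream start, chr1:40266336-40266585, plus strand: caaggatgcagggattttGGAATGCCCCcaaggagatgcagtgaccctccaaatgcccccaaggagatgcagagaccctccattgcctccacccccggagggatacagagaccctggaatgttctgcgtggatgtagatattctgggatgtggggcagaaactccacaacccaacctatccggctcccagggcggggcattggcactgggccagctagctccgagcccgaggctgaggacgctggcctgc

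The kappaB consensus was matched in 6 of the 11 windows, belonging to 4 of the 7 genes (Nfkbia, Nfkb2, Tnfaip3 and Il1r1). Over all 32851 windows of the same length, 3.90% held such a match. In Nfkbia the match lay 29 to 20 bases before the start. Nfkb2 had matches in all 3 of its windows, and those of its first start lay 39 to 29 and 11 to 2 bases before it, the first of them as overlapping matches on both strands. The E-box occurred in 1 window, that of the upstream start of Tnfaip3, 33 to 28 bases before the start, against 6.02% of all windows. The D-box TTATGTAA (0.819% of all windows) and the Rev-Erb/ROR element, AGGTCA preceded by A or T at both positions before it (2.98%), were not found in the 11 windows. These matches describe letters in a window and are not measured binding sites.

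The tissue was represented by its own markers. The 10 markers of choroid plexus epithelium summed to between 114248 and 170011 CPM in Ctrl and SCNx, and totals per library ran from 38751201 to 49527655 estimated counts. The CPM of a marker sum is scaled to the library total alone, and that of a single gene to the total after TMM scaling. In 4 libraries transcripts of other tissue stood out, since hepatocyte markers summed to 1529 CPM in Ctrl CT16 and 10154 CPM in SCNx CT0 against medians of 1.76 and 3.37, and astrocyte markers to 703 CPM in Ctrl CT4 and 1008 CPM in SCNx CT32 against medians of 55.1 and 51.0. In a further library, SCNx CT44, blood markers summed to 4857 CPM against a median of 392 CPM. Ctrl CT16 also held the NF-kB targets Lcn2 at 171 CPM and Saa3 at 101 CPM, against Ctrl medians of 0.198 and 0.0459 CPM. In SCNx the highest Saa3 was 1.24 CPM, at CT0. Lcn2 and Saa3 averaged under 1 CPM in SCNx, so their rhythm was not tested. Ctrl CT16 was also the highest Ctrl mouse for Il1b, Il1rn, Cxcl1, Icam1, Sele, Ptgs2, Cd14 and Tnfrsf1b, but for none of the 10 genes. The cause was not tested. The KO libraries held 17425207 and 18059227 counts, and their epithelial sum was 86751 CPM by day and 82399 CPM by night. Their astrocyte sums, 784 CPM by day and 929 CPM by night, lay between those of Ctrl CT4 and SCNx CT32. Arntl, the targeted gene, was still read at 11.04 CPM in KO day and 8.95 CPM in KO night, and a count over the whole gene does not show whether the floxed exon was gone.

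Levels were set in order per kilobase of exon, with exon lengths from GENCODE M21. The TNF receptor gene Tnfrsf1a stood first in Ctrl with 25.4 ± 1.24 CPM per kb (SD, n = 12). Rela followed with 15.5 ± 1.16, Nfkbia with 13.4 ± 1.84, Nfkb1 with 11.7 ± 0.556 and Tnfrsf12a with 11.5 ± 0.929 CPM per kb. Il1r1 came next with 5.09 ± 1.28 CPM per kb, then Nkiras1 with 3.35 ± 0.441, Relb with 2.18 ± 0.259, Nfkb2 with 0.897 ± 0.208 and Tnfaip3 with 0.470 ± 0.113 CPM per kb. Nfkb1 exceeded Tnfrsf12a in 8 of 12 Ctrl mice, Nfkbia exceeded Nfkb1 in 10 and Rela exceeded Nfkbia in 11, so that these neighbours were within or near their spread. The other neighbours kept their order in 12 of 12 Ctrl mice. The canonical subunits Rela and Nfkb1 thus lay above Relb and Nfkb2, the pair of the alternative route, in mean level per kb. An exon of Nkiras1 overlaps an exon of Ube2e1 on the opposite strand by up to 718 bases, and Nfkb2 overlaps AC114539.1 by up to 501 bases and Psd by up to 299 bases in the same way. Whether strand was used in the counting is not given in the sources used here, so their reads may be shared.

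The question of the time course was which genes followed a 24 h rhythm in Ctrl and whether a rhythm shared by the mice was still there without the SCN. Each mouse was sampled once, so the test can only see a rhythm whose phase is shared across mice. Rhythms of unlike phase within single SCNx mice would not pass it, so a gene that did not pass in SCNx may still have cycled in single mice. A rhythm in Ctrl passed the test for 3 of the 10 genes, the IL1 receptor Il1r1 and the inhibitors Nkiras1 and Nfkbia. Il1r1 and Nkiras1 peaked near subjective dawn, and Nfkbia peaked soon after subjective dusk. In SCNx, 0 of the 10 genes passed, and so did 0% of all genes tested. The test of a rhythm was edgeR's quasi-likelihood F test of a 24 h cosine curve, adjusted over 13697 genes. In Ctrl, 10.7% of all genes tested passed it. The difference of the curves between Ctrl and SCNx passed for 0 of the 10, against 2.12% of all genes. The genes were chosen with results of these libraries known, so the share of 3 in 10 is not independent evidence about the pathway. In bulk tissue, fewer cells of a type and less RNA per cell cannot be told apart.

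**Figure D1:**
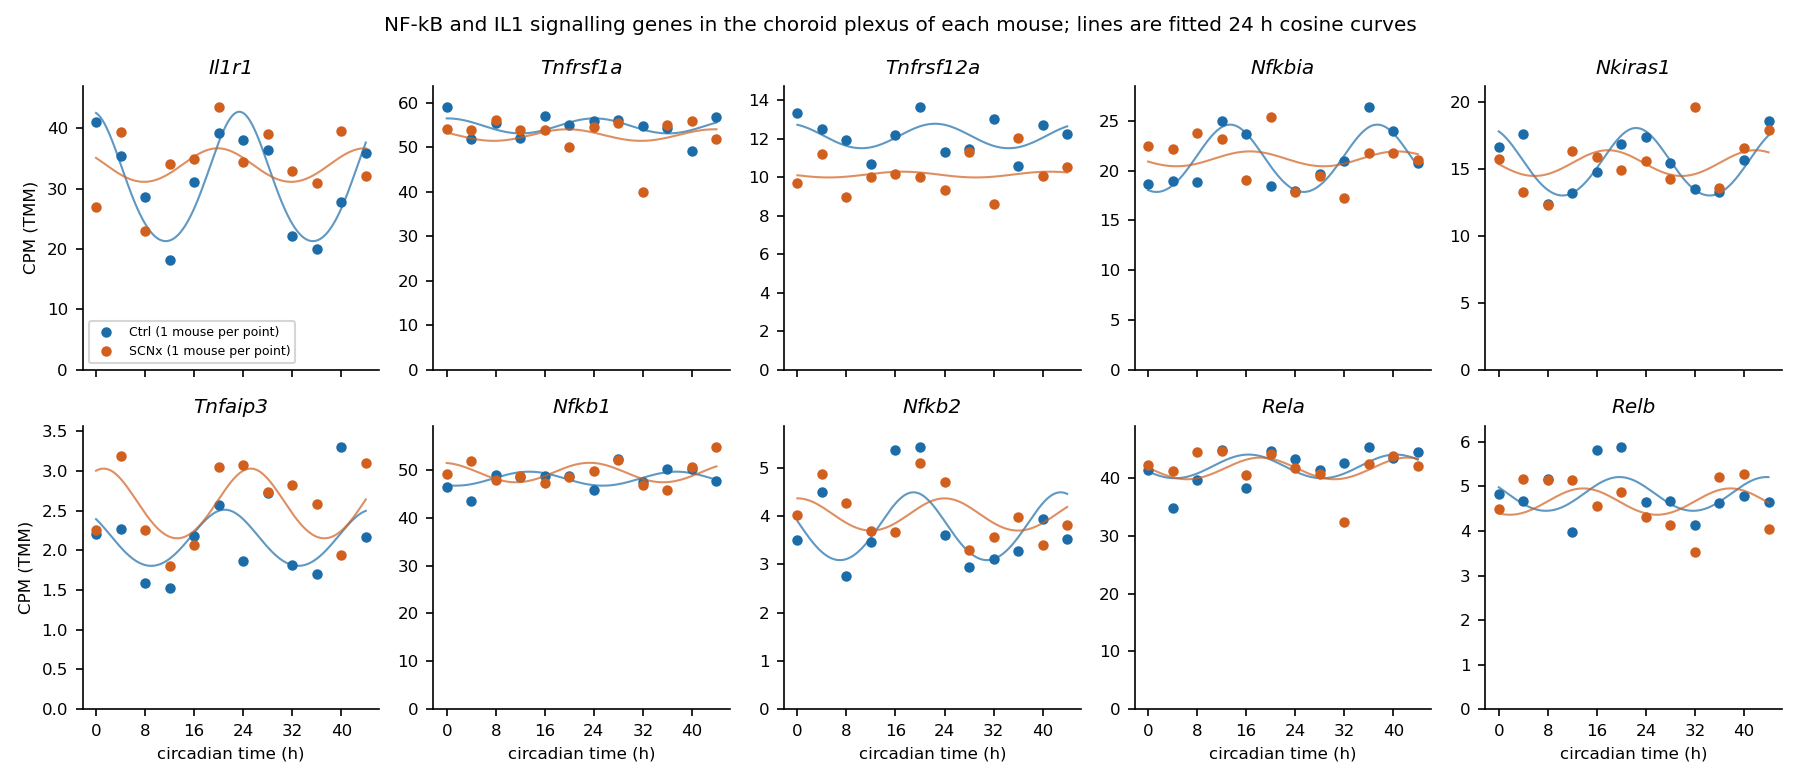
CPM (TMM scaled, linear axis from 0) of the 10 genes against circadian time in hours, 1 mouse per point, Ctrl in blue and SCNx in orange, with the fitted 24 h curve of each group. Il1r1 in Ctrl fell to 18.2 CPM at CT12 and 19.9 CPM at CT36 and stood at 41.1 CPM at CT0 and 38.0 CPM at CT24, while the SCNx points lay scattered about a flatter line.

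Il1r1 (ENSMUSG00000026072) encodes the signalling receptor for IL1 alpha and IL1 beta. In Ctrl it ranged from 18.2 CPM at CT12 through a median of 33.2 to 41.1 CPM at CT0. The low mice were those of CT12, CT32 and CT36 and the high ones those around CT0, CT20 and CT24, so the second cycle repeated the first. In the first cycle the highest mouse was that of CT0 and the lowest that of CT12, and in the second the highest was that of CT24 with 38.0 CPM and the lowest that of CT36 with 19.9 CPM. The fitted amplitude, the distance from mean to peak, was 0.50 ± 0.067 on the log2 scale (SE, n = 12), with a peak at 23.4 ± 0.508 h. This amounts to 2.01-fold between peak and trough (edgeR, adjusted p = 0.00250). The adjusted p stayed between 0.000741 and 0.0146 when each of the 24 mice was left out in turn, and was 0.000776 without the 4 libraries that carried hepatocyte or astrocyte transcripts and 0.000459 without these and SCNx CT44.

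In SCNx, Il1r1 ranged from 23.002 CPM at CT8 through a median of 34.2 to 43.5 CPM at CT20. The ranges of the groups overlapped, and 3 Ctrl mice lay below every SCNx mouse. The fitted amplitude was 0.12 ± 0.11 (SE, n = 12; edgeR, adjusted p = 0.678). The difference of the curves between Ctrl and SCNx did not pass (edgeR, p = 0.00829 before and 0.149 after adjustment). When each of the 24 mice was left out in turn, the adjusted p of this difference lay between 0.0473 and 0.311. It passed in only 1 of these fits, that without the SCNx mouse of CT8. That mouse also had the lowest Arntl of its group (3.27 CPM) and the highest Dbp (88.5 CPM), 2 transcripts of the clock.

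Nfkbia (ENSMUSG00000021025) encodes IkB alpha, which binds NF-kB and is resynthesised when NF-kB is active. It ranged in Ctrl from 17.9 CPM at CT24 through a median of 20.2 to 26.4 CPM at CT36. Its highest mice in each cycle were those of CT12 (25.0 CPM) and CT36 (26.4 CPM), the same times at which Il1r1 was lowest. The amplitude was 0.23 ± 0.040 (SE, n = 12) with a peak at 13.4 ± 0.651 h, or 1.38-fold from trough to peak (edgeR, adjusted p = 0.0295). The call was lost without the Ctrl mouse of CT12 (adjusted p = 0.0664), of CT24 (0.0611) or of CT36 (0.0831). In SCNx, Nfkbia ranged from 17.2 CPM at CT32 through a median of 21.8 to 25.4 CPM at CT20, with an amplitude of 0.051 ± 0.074 (edgeR, adjusted p = 0.843). The difference of the curves did not pass (edgeR, unadjusted p = 0.0670, adjusted p = 0.367).

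Nkiras1 (ENSMUSG00000021772) encodes a small Ras-like protein that binds IkB and slows its breakdown. In Ctrl it ranged from 12.3 CPM at CT8 through a median of 15.5 to 18.5 CPM at CT44. The lowest values fell at CT8 in the first cycle and at CT36 (13.2 CPM) in the second. Its amplitude was 0.24 ± 0.036 (SE, n = 12) with a peak at 22.4 ± 0.583 h, or 1.39-fold (edgeR, adjusted p = 0.0413). This call lay close to the threshold. It was lost, with adjusted p between 0.0501 and 0.112, without the Ctrl mouse of CT0, CT8, CT12, CT20, CT24, CT28, CT32, CT36, CT40 or CT44 or the SCNx mouse of CT12, CT16, CT24 or CT28. In SCNx it ranged from 12.3 CPM at CT8 through a median of 15.6 to 19.6 CPM at CT32, with an amplitude of 0.090 ± 0.079 (edgeR, adjusted p = 0.693). The difference of the curves did not pass (edgeR, unadjusted p = 0.0501, adjusted p = 0.331).

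**Figure D2:**
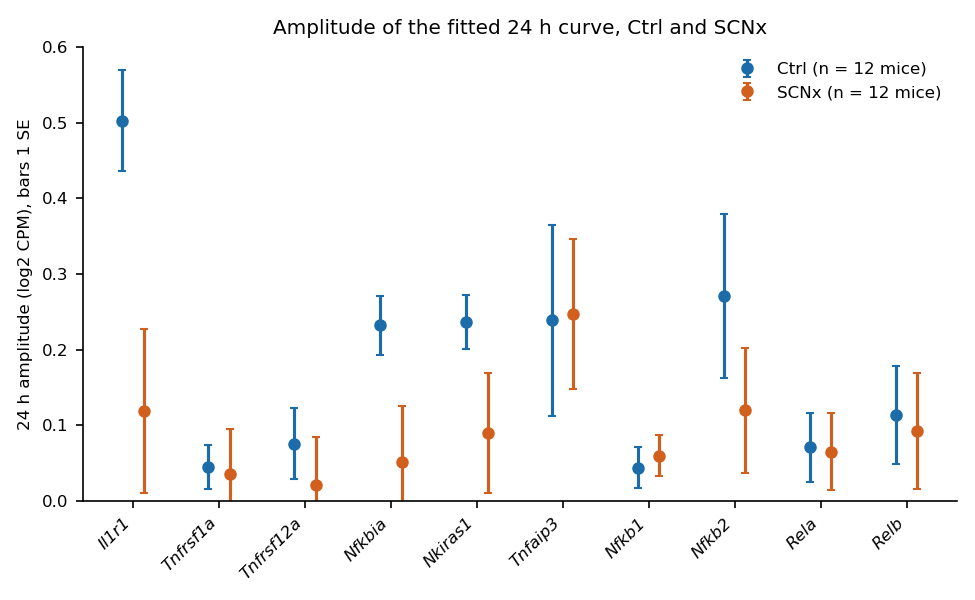
Amplitude of the fitted 24 h curve on the log2 CPM scale for each of the 10 genes, Ctrl in blue and SCNx in orange, bars 1 SE, 12 mice per group. Il1r1 in Ctrl stood highest at 0.50, and 8 of the 10 genes had the larger fitted amplitude in Ctrl.

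The other 7 genes did not pass the test of a rhythm in either group. Nfkb2, a subunit made as the precursor p100, came nearest in Ctrl with an amplitude of 0.27 ± 0.11 and a peak at 18.9 h (edgeR, unadjusted p = 0.0364, adjusted p = 0.166). It ranged from 2.77 CPM at CT8 through a median of 3.51 to 5.44 CPM at CT20, and among the fits that left out 1 mouse it passed only without the Ctrl mouse of CT4 (adjusted p = 0.0312). Its highest mice stood in the first cycle, and the highest of the second cycle, at CT40, reached 3.94 CPM. Tnfaip3 had an amplitude of 0.24 ± 0.13 in Ctrl and 0.25 ± 0.099 in SCNx (edgeR, adjusted p = 0.398 and 0.460). Relb, Rela, Nfkb1, Tnfrsf12a and Tnfrsf1a had amplitudes between 0.044 and 0.11 in Ctrl, with adjusted p between 0.566 and 0.786. The flattest curves were those of Nfkb1 and Tnfrsf1a, as Nfkb1 kept between 43.4 and 52.3 CPM and Tnfrsf1a between 49.1 and 59.1 CPM over the 12 Ctrl mice.

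At an unadjusted p under 0.05, 4 of the 10 genes passed in Ctrl against 24.8% of all genes, and 0 of 10 in SCNx against 14.8%. In SCNx no gene of the table passed after adjustment (0% of 13697 genes in edgeR), while DESeq2 called 432 genes and limma-trend 0, in both cases 0 of the 10. For the difference between the groups 0 of 10 passed against 2.12% of all genes, and 1 of 10, Il1r1, at an unadjusted p under 0.05 against 15.1%, with 0 of 10 also in DESeq2 and limma-trend. The fitted amplitude was larger in Ctrl than in SCNx for 8 of the 10 genes, the exceptions being Nfkb1 and Tnfaip3, and for 56.1% of all genes. Its median over the 10 genes was 0.17 in Ctrl and 0.078 in SCNx, beside 0.11 and 0.091 over all genes. A fitted amplitude cannot be negative, so noise alone gives a value above 0. As the genes were chosen with results of these libraries known, their amplitudes beside those of all genes are not independent evidence about the pathway.

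Cell markers were followed in the same way. In Ctrl the summed markers of fibroblasts had an amplitude of 0.17 ± 0.055 (SE, log2 scale) with a peak at 10.4 h, those of smooth muscle and pericytes 0.36 ± 0.16 with a peak at 8.06 h, and those of endothelium 0.24 ± 0.14 with a peak at 8.37 h. The epithelial markers had 0.048 ± 0.033, the macrophage markers 0.025 ± 0.089 and the oligodendrocyte markers 0.049 ± 0.15. The sums of astrocytes (0.36 ± 0.50), neurons (0.46 ± 0.55), blood (0.49 ± 0.31), neutrophils (1.33 ± 0.60, on at most 7.51 CPM) and hepatocytes (2.67 ± 0.97) had the largest errors, and those of astrocytes, neurons and hepatocytes were far above their medians in single Ctrl libraries. The fibroblast sum lay between 409 and 598 CPM in Ctrl and between 456 and 570 CPM in SCNx, and the sum of smooth muscle and pericytes between 149 and 377 CPM and between 157 and 332 CPM. In SCNx the amplitude was 0.061 ± 0.033 for fibroblasts, 0.30 ± 0.12 for smooth muscle and pericytes and 0.33 ± 0.13 for endothelium. It was 0.098 ± 0.055 for epithelium, 0.12 ± 0.093 for macrophages and 0.40 ± 0.19 for oligodendrocytes. The part of these markers in the rhythms of Il1r1, Nkiras1 and Nfkbia was not tested.

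The genes most like each rhythmic gene over the 12 Ctrl libraries were found by Pearson's r of log2 CPM among all genes tested. Points of a series over time share their time of day, so r is given as a description. For Il1r1 they were Clock (r = 0.969), the partner of BMAL1 in the core clock, Bicral (r = 0.962) and Rapgef5 (r = 0.955). Over the 12 SCNx libraries, killed at the same times but without the SCN, the same pairs gave r = 0.911, 0.198 and 0.818. For Nkiras1 they were Vamp4 (r = 0.947), Pnrc1 (r = 0.931) and Arntl itself (r = 0.929), with r = 0.572, 0.193 and 0.653 in SCNx. For Nfkbia they were Wnt5b (r = 0.953), the ubiquitin ligase gene Peli2 (r = 0.945) and Epn2 (r = 0.927), with r = -0.246, 0.0413 and -0.289 in SCNx. Arntl itself had an amplitude of 2.23 ± 0.080 with a peak at 22.8 h in Ctrl and 0.63 ± 0.27 in SCNx, and Dbp peaked at 10.2 h in Ctrl.

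The wider pathway was read from a list of 94 further genes, of which 68 were expressed above the filter. Of the 68, 8 passed the test of a rhythm in Ctrl against 10.7% of all genes, 0 in SCNx (2 in DESeq2), and 1, Ier3, for the difference between the groups against 2.12%. These counts lie near the background. By role, they were 1 of 4 ligands tested (Il33), 1 of 10 receptors (Il1rl2), 3 of 26 adaptors and kinases (Traf3, Traf2 and Myd88), 1 of 11 deubiquitinases and other inhibitors (Rnf11) and 2 of 9 NF-kB targets (Ier3 and Ptgs2). Of the 5 further NF-kB and IkB genes and the 3 subunits of the linear ubiquitin ligase 0 passed, with 0 also at an unadjusted p under 0.05. At an unadjusted p under 0.05, 19 of the 68 genes passed in Ctrl against 24.8% of all genes and 8 in SCNx against 14.8%, again near the background.

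Among the ligands, Il33, an alarmin of the IL1 family, ranged from 10.7 CPM at CT0 to 23.4 CPM at CT12 in Ctrl, with an amplitude of 0.44 ± 0.076 and a peak at 11.9 h (edgeR, adjusted p = 0.00560). It was thus highest when Il1r1 was lowest. The ligands of Il1r1 and Tnfrsf1a were hardly read, which was noted after their values were seen: Il1b reached at most 24 reads in a Ctrl mouse, Tnf 7 and Il1a 4. Tnfsf12, which encodes TWEAK, the ligand of Tnfrsf12a, stood at a median of 6.03 CPM in Ctrl.

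Il1rl2, the receptor for IL36, had an amplitude of 0.67 ± 0.092 with a peak at 9.04 h (edgeR, adjusted p = 0.000711), on only 0.680 to 2.24 CPM. The adaptor Myd88, which links IL1 and Toll-like receptors to their kinases, had an amplitude of 0.19 ± 0.045 with a peak at 21.8 h (edgeR, adjusted p = 0.0320). Traf2, an adaptor of the TNF receptors, had 0.24 ± 0.032 with a peak at 19.2 h, and Traf3, which restrains the alternative route, 0.13 ± 0.024 with a peak at 23.3 h (edgeR, adjusted p = 0.0179 and 0.0111). Rnf11, a partner of A20, had 0.15 ± 0.036 with a peak at 21.9 h (edgeR, adjusted p = 0.0153). Of the targets, Ier3 had 0.50 ± 0.083 with a peak at 11.8 h and Ptgs2, which encodes cyclooxygenase 2, 0.76 ± 0.19 with a peak at 12.1 h (edgeR, adjusted p = 0.00567 and 0.0182). The highest Ctrl mouse of Ptgs2 was that of CT16 with 3.27 CPM, against a Ctrl median of 1.51 CPM. Whether the call of Ptgs2 holds without that mouse is not known.

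**Figure D3:**
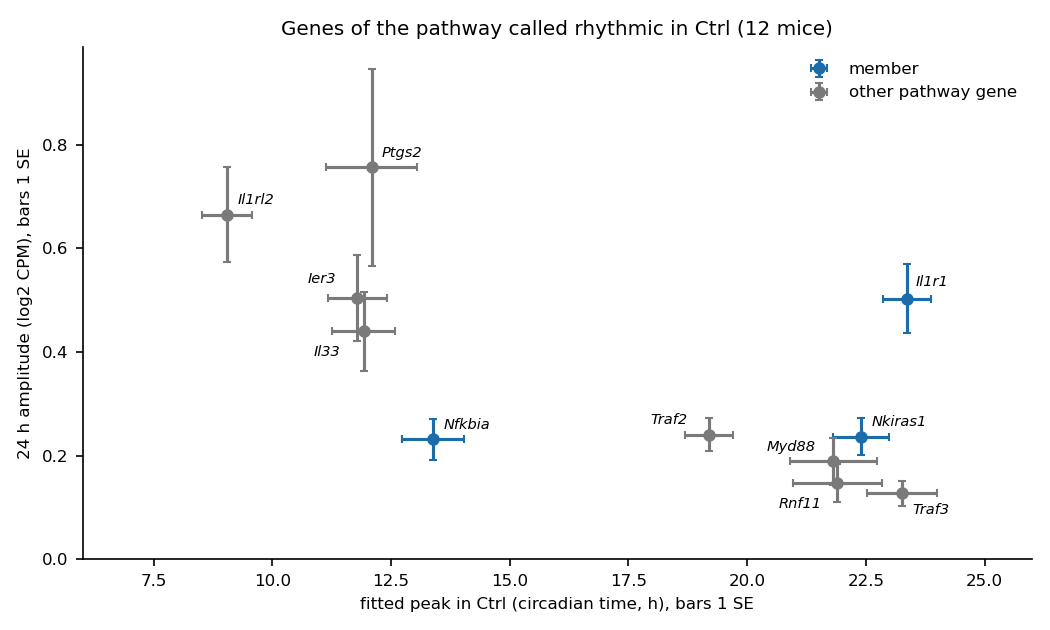
Fitted amplitude (log2 CPM) against fitted peak (circadian time, h) in Ctrl for the 11 pathway genes that passed the test of a rhythm, members in blue and other pathway genes in grey, bars 1 SE, 12 mice. The peaks of 5 genes lay between 9.04 and 13.4 h and those of 6 genes between 19.2 and 23.4 h.

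The 11 rhythmic genes of the pathway peaked at 2 times of day. Nfkbia peaked with Il1rl2, Ier3, Il33 and Ptgs2, between 9.04 and 13.4 h, the end of the subjective day and the start of the subjective night. Il1r1 and Nkiras1 peaked with Traf2, Myd88, Rnf11 and Traf3, between 19.2 and 23.4 h, in the late subjective night. Of all 1459 genes called rhythmic in Ctrl, 18.5% peaked from 9 to 14 h and 33.7% from 19 to 24 h, windows that were drawn after the peaks were seen. The rhythmic targets and Il33 thus peaked at the other end of the day from the receptor Il1r1 and the adaptors. The other rhythmic receptor, Il1rl2, peaked with the targets, and Il33 is not among the ligands of Il1r1.

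Levels were compared between all SCNx and all Ctrl mice with time points pooled. No gene passed in edgeR (0% of 13697 genes), so 0 of the 10 did, while DESeq2 called 7 genes and limma-trend 0. Tnfrsf12a, the TWEAK receptor, came nearest and was the only 1 of the 10 at an unadjusted p under 0.05, against 9.37% of all genes in either direction and 4.58% lower in SCNx. The log2 difference of Tnfaip3 was of like size in the other direction, with a larger error, and those of the other 8 genes lay between -0.051 and 0.14.

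Tnfrsf12a (ENSMUSG00000023905) ranged in Ctrl from 10.6 CPM at CT36 through a median of 12.2 to 13.7 CPM at CT20. In SCNx it ranged from 8.59 CPM at CT32 through a median of 10.04 to 12.1 CPM at CT36. The SCNx mouse was the lower at 11 of 12 time points, the exception being CT36, and 9 of 12 SCNx mice lay below every Ctrl mouse. The log2 difference was -0.26 ± 0.054 (SE; edgeR, unadjusted p = 6.93e-05, adjusted p = 0.266), the smallest p of all genes tested. DESeq2 on the same counts gave -0.26 with an adjusted p of 0.0250, so the call depended on the tool. Its value was -0.22 without the 4 libraries that carried hepatocyte or astrocyte transcripts and -0.23 without these and SCNx CT44. The summed epithelial markers had a median of 159473 CPM in Ctrl and 151373 CPM in SCNx, the endothelial markers 142 and 185 CPM and the macrophage markers 100.2 and 115 CPM, and their part in this difference was not tested.

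Tnfaip3 lay higher in SCNx at 10 of 12 time points, with ranges of 1.53 to 3.31 CPM in Ctrl and 1.80 to 3.19 CPM in SCNx. Its log2 difference was 0.25 ± 0.13 (SE; edgeR, unadjusted p = 0.0589, adjusted p = 0.558), on 68 to 157 reads per library. Il1r1 differed by 0.14 ± 0.13, Nfkb2 by 0.092 ± 0.11 and Nfkb1 by 0.038 ± 0.030 on the log2 scale. The remaining differences were those of Tnfrsf1a (-0.051 ± 0.042), Relb (-0.049 ± 0.074), Rela (-0.011 ± 0.047), Nfkbia (0.011 ± 0.073) and Nkiras1 (0.0067 ± 0.076), and none of these passed. The median over the 10 genes was 0.0088 and over all genes 0.011. Of the 68 further pathway genes 28 were lower and 40 higher in SCNx, and 0 passed in edgeR or DESeq2, with 8 at an unadjusted p under 0.05 against 9.37% of all genes. The SCNx mouse of CT32, the library rich in astrocyte and neuron transcripts, was the lowest of its group for Nfkbia, Rela, Relb, Tnfrsf1a and Tnfrsf12a and the highest for Nkiras1.

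**Figure D4:**
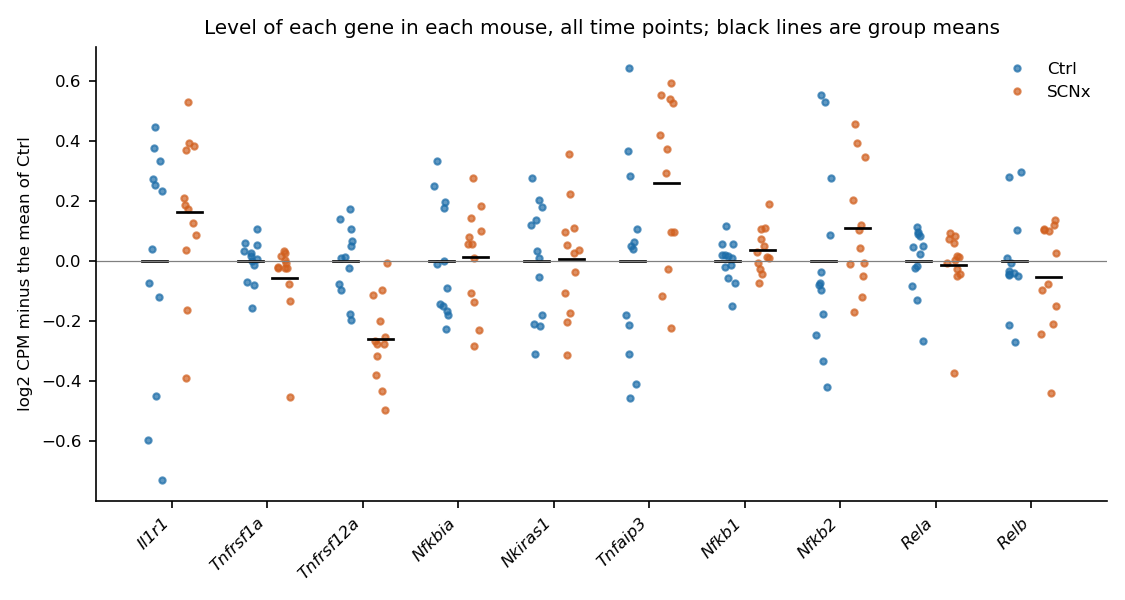
Log2 CPM of each gene in each mouse minus the mean of Ctrl, all time points, Ctrl in blue and SCNx in orange, black lines for group means, 12 mice per group. Tnfrsf12a is the gene for which most SCNx mice, 9 of 12, lay below all Ctrl mice.

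The KO libraries address whether day and night differ in a choroid plexus whose own clock gene was targeted. With 1 library per time they allow no test, and their levels were not compared with Ctrl because kit, dissection, light regime and genotype all differ. Intervals are exact, at 95%, and cover counting error only. The largest of the 10 differences was that of Nfkb2, with 2.76 CPM by day and 6.14 CPM by night, a log2 difference of 1.14 (0.65 to 1.68). Rela was read at 26.8 CPM by day and 41.3 CPM by night (0.62, 0.45 to 0.79) and Tnfrsf1a at 22.5 and 28.97 CPM (0.36, 0.17 to 0.56).

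Il1r1 went the other way in the KO libraries, with 41.7 CPM by day and 32.0 CPM by night (-0.38, -0.54 to -0.22). Nkiras1 was read at 16.7 and 12.6 CPM (-0.41, -0.67 to -0.15) and Tnfrsf12a at 5.22 and 3.39 CPM (-0.61, -1.11 to -0.14). The fitted Ctrl curves at CT18 minus CT7 gave 0.29 ± 0.13 for Il1r1 and 0.24 ± 0.072 for Nkiras1 (SE, n = 12), of the opposite sign. For Nfkbia the KO difference was 0.19 (-0.023 to 0.41) and the fitted Ctrl difference 0.11 ± 0.078. Nfkb1, Relb and Tnfaip3 had intervals that included 0. Over 13220 genes the median absolute night minus day difference in KO was 0.229 and the 90th percentile 0.6210. Nfkb2 alone of the 10 lay past the latter, which is the share of all genes past a 90th percentile. Rela (0.6206) and Tnfrsf12a (-0.614) lay just short of it in size. Markers of other cells also differed, as neuron markers summed to 201 CPM by day and 304 CPM by night, oligodendrocyte markers to 264 and 383 CPM, astrocyte markers to 784 and 929 CPM, fibroblast markers to 374 and 507 CPM, endothelial markers to 179 and 232 CPM and those of smooth muscle and pericytes to 264 and 333 CPM. Their part in these differences was not tested.

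**Figure D5:**
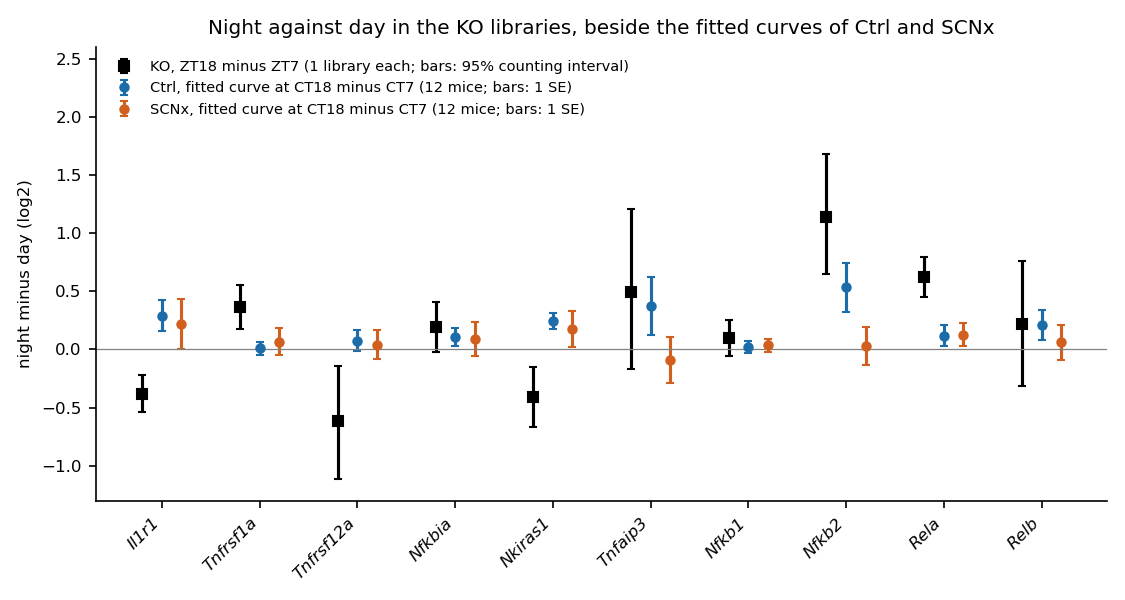
Night minus day on the log2 scale for the 10 genes: KO ZT18 minus ZT7 in black, 1 library each, bars 95% counting intervals, beside the fitted curves of Ctrl (blue) and SCNx (orange) at CT18 minus CT7, bars 1 SE, 12 mice. Il1r1 and Nkiras1 are below 0 in KO and above 0 in the fitted Ctrl curve, and Nfkb2 in KO is the highest at 1.14.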

How the data were processed

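Total RNA of the choroid plexus was sequenced from 12 Ctrl, 12 SCNx and 2 KO samples as single-end reads. The authors processed reads with the nf-core/rnaseq workflow on mouse build GRCm39 and deposited estimated counts per gene from Salmon (1.9.0 in the submitters' processing notes), in one table for Ctrl and SCNx and another for KO. Counts were rounded and scaled by TMM. The genes tested had to reach an average CPM of 1 in Ctrl and in SCNx, and were fitted with edgeR 4.0.16 in R 4.3.3 (quasi-likelihood F test, 24 h cosine and sine per group over 24 mice, or group alone for levels) with Benjamini-Hochberg adjustment over 13697 genes and a threshold of 0.05. Amplitudes, peaks and SEs came from least squares on log2 CPM (prior count 1). The rounded counts were also tested with DESeq2 1.42.0 and limma 3.58.1 and a rank test. KO was only described. The fits of a rhythm in each group and of levels were run on simulated counts, and the test of the difference of rhythm was not. The simulated amplitudes were larger than most of those fitted to the 10 genes, so that check does not cover rhythms as small as theirs. Of the members, Tnfaip3 and Nfkb2 had the fewest reads and so the least precise values. The p-values rest on the spread of single mice about the fitted curve or, for levels, about the group mean. With 1 mouse per time point and group, that spread also holds departures from a 24 h curve. For levels it also holds the variation with time of day. The members, the pathway list and the markers were chosen with earlier results of these data known. Named genes are the 10 members, the pathway genes past the threshold in any test, the 3 genes most correlated with each rhythmic member in Ctrl, and Arntl and Dbp. Other genes were named after their values were seen. No coordinates of GRCm39 were used, and promoters and exon lengths are those of GRCm38.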

Additional observations from a re-analysis of the deposited data

Results flagged for a closer look

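Ier3, an immediate early gene switched on by NF-kB, was singled out. Its 24 h curve differed between the groups in a test of the difference itself (edgeR, adjusted p = 0.0370). It was the 1 gene called of 68 further pathway genes, against 2.12% of all genes, so this count lies near the background. In Ctrl it ranged from 4.65 CPM at CT0 to 12.0 CPM at CT36, with an amplitude of 0.50 ± 0.083 and a peak at 11.8 h. In SCNx it ranged from 4.84 CPM at CT40 to 10.4 CPM at CT8, with an amplitude of 0.28 ± 0.11 and a peak at 4.57 h. The difference no longer passed in at least 13 of 24 fits that left out 1 mouse, each of which called 0 pathway genes. These left out Ctrl CT0, CT16, CT20, CT24, CT28, CT36, CT40 or CT44, or SCNx CT4, CT12, CT16, CT36 or CT40. In the remaining fits only the number of pathway genes called was kept, so the call of Ier3 itself is not known there.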

How the results depend on the processing

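Of the 10 genes, 3 were called rhythmic in Ctrl. The count was 1 without a filter on low counts, 5 at the study's threshold of 0.4 and 2 by the rank test. It was 1 to 4 when each mouse was left out. Here 0.4 was set on the adjusted p of edgeR alone, also for the difference of rhythm. The study required it of 3 other rhythm tests together, so these are not counts by its criterion. Over all genes the rank test called 1024 in Ctrl. For the difference of rhythm it was 0, but 4 at the study's threshold and 0 to 1 leaving out each mouse. For levels the count was 0, but 1 in DESeq2 (Tnfrsf12a), and 0 in each fit without a mouse. In SCNx it was 0 in all 35 alternatives run. Il1r1 kept its call in Ctrl in all 35, Nfkbia lost it in 4 and Nkiras1 in 16. Near-zero level differences changed sign, namely Relb (0.017) and Nkiras1 (-0.020) without the 4 libraries rich in other tissue, Relb (0.039) and Nkiras1 (-0.053) also without SCNx CT44, rich in blood transcripts (5 libraries in all, chosen after seeing the data), Nkiras1 (-0.0077) without a filter and, leaving out single mice, Nfkbia (-0.015 to 0.041), Rela (-0.036 to 0.014) and Nkiras1 (-0.033 to 0.034). The cause was not tested. Among further pathway genes, 8 were called rhythmic in Ctrl (5 by the rank test, 32 at the study's threshold, 16 without the 5 libraries), 0 in SCNx (2 in DESeq2, 13 at the study's threshold) and 1 for the difference (2 in DESeq2, 3 without a filter, 3 without the 4 libraries, 2 without the 5, 16 at the study's threshold). Over all genes, Ctrl calls rose from 1459 to 2901 without the 4 libraries, 3053 without the 5 and 2249 without the SCNx mouse of CT32, and were 918 without the Ctrl mouse of CT44 and 5712 at the study's threshold, SCNx calls from 0 to 432 in DESeq2, 1384 without a filter and 35 without the 5 libraries, and calls for the difference from 291 to 589, 654, 640 and 485 in DESeq2, without a filter, without the 4 libraries and without the 5, with 163 to 466 leaving out each mouse. For levels DESeq2 called 7 genes and edgeR 0 to 3 leaving out each mouse. With circadian time as a block, the level difference of Tnfrsf12a was -0.26 (adjusted p = 0.649). Each KO difference stayed within its counting interval with a prior count of 5 or scaled by totals. Scaled by totals, Nfkb1 stood at 0.23 and Nfkbia at 0.32, against 0.10 and 0.19. The intervals given are those of TMM scaling, so whether one includes 0 can depend on the scaling. Genes with few reads, such as Tnfaip3 (68 to 157 in Ctrl), had the widest errors.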

Other observations

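Arntl ranged from 3.27 CPM at CT8 to 21.8 CPM at CT40 among the SCNx mice, and the 10 genes were set against it over these 12 mice, 10 relations in all. For Il1r1, Pearson's r was 0.737 (permutation p = 0.00890, adjusted p = 0.0890) and Spearman's rho 0.664 (permutation p = 0.0223, adjusted p = 0.223), and r was 0.780 without the mice of CT8 and CT4, the farthest from the median of Arntl. For Nkiras1, r was 0.653 (permutation p = 0.0211, adjusted p = 0.105) and rho 0.545 (permutation p = 0.0719, adjusted p = 0.359), and r fell to 0.223 without those mice, so that this relation rests on them. For the other 8 genes r lay between -0.375 and 0.196, with adjusted p of 0.640 or more. None of the 10 relations passed after adjustment.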
